A study of Homo sapiens with 24 samples.

Results

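Interferon-stimulated genes are the genes that cells switch on when an interferon binds its receptor, or when a sensor of foreign nucleic acid fires. They were followed here as 46 named genes, chosen by symbol among the 25168 genes of each count table. All 46 symbols were present in both tables. The libraries came from BXPC3 and PANC1, 2 established human lines of pancreatic ductal adenocarcinoma. Each line was grown in serum-containing, low-glucose medium and treated for 24 h in 4 ways: with vehicle, with 5 uM SR4, with 300 uM lonidamine, and with SR4 and lonidamine together, for which the labels give no separate doses. SR4 is known in the labels by its code name, and lonidamine is a blocker of lactate export and mitochondrial pyruvate uptake. The study put the pair forward as a therapy aimed at the energy supply of the cell. No label names an interferon or a virus among the treatments. Every group had 3 libraries, 24 in all, each made from messenger RNA of total RNA. Nothing in the labels says whether the 3 came from separate cultures, so p-values measure the spread between these libraries, which may be technical.

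Type I and type III interferons act through receptors that engage the kinases JAK1 and TYK2. These phosphorylate STAT2, which joins IRF9 in the complex ISGF3. The complex binds the interferon-stimulated response element, a pair of GAAA blocks held a short step apart, in the promoters of the genes it turns on. Interferon gamma acts through the gamma-activated site and through IRF1. The products degrade or mask viral RNA, block viral entry and budding, sense RNA, modify proteins and call in immune cells. Some tumours keep many of these genes on without an infection. In bulk RNA, fewer cells that use a gene and less RNA per cell cannot be told apart, and the values below are totals over each culture.

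The response element was searched for in promoter windows of 300 bases, from 250 before to 50 after each RefSeq start on GRCh38.p14. Only pairs of GAAA held 2 bases apart were counted as the element, and other steps were not. RefSeq windows were matched for 38 of the 46 genes, DDX58 through its current symbol RIGI. Those without a matched window were IRF7, IFIT2, IFITM2, OAS2, OASL, MX2, TRIM22 and USP18. The core, GAAA, any 2 bases and GAAA again, read on both strands with overlaps allowed, was in a window of 25 of the 38 genes (65.8%), against 4.38% of the 27305 genes with a window. The longer form, the core followed by CT, was in 16 of the 38 (42.1%), against 0.322% of genes. The gamma-activated site TTCNNNGAA, a search added after the data were seen, was in 14 (36.8%), against 9.38%. The sites below are shown because 25 of the 38 matched members hold the core, while the others do not. Members were chosen by symbol, but as interferon-stimulated genes, so these shares are not independent of that choice. Each is read 5′ to 3′ on the strand that carries the motif, and capitals mark the core:
IFIT1 (chr10:89392499-89392524, minus strand): cgaaagggGAAAGTGAAActaaagct
IFIT3 (chr10:89332470-89332495, minus strand): ggggaaagGAAAGTGAAActgatgga
IFITM3 (chr11:320878-320903, plus strand): actgttgaGAAACCGAAActactggg
OAS3 (chr12:112938323-112938348, plus strand): aaagaaacGAAACTGAAAgcagggaa
MX1 (chr21:41420561-41420586, plus strand): gcagaaatGAAACCGAAActgaattg
BST2 (chr19:17405743-17405768, plus strand): ctttctggGAAACTGAAActgaaaac
RSAD2 (chr2:6877624-6877649, minus strand): ccacatgtGAAACTGAAAgttgaaac
ISG15 (chr1:1013382-1013407, plus strand): gggaaaggGAAACCGAAActgaagcc
IFI6 (chr1:27672331-27672356, plus strand): agagagggGAAAATGAAActctgcag
IFI27 (chr14:94110620-94110645, minus strand): ttttccagGAAACCGAAActgcagac
IFI44 (chr1:78649763-78649788, minus strand): agagaaagGAAACTGAAActcagtgt
IFIH1 (chr2:162318688-162318713, plus strand): agagaatcGAAACAGAAAccaaagtc
CXCL10 (chr4:76023701-76023726, plus strand): atgttttgGAAAGTGAAAcctaattc
PARP9 and DTX3L (chr3:122564324-122564349): agggaagcGAAACTGAAActttgcgc
PARP9 and DTX3L are read in opposite directions from the same stretch, and 1 site lies in both windows.

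The whole stretch of 250 bases before the start is shown for 3 genes. IFIT1 and OAS3 were called lower, and STAT2 higher, under every treatment in both lines. They were picked by these calls, and other members, such as PARP9 and PLSCR1, were also lower throughout. Members without the core fell too, as given further below. Capitals again mark the core or its reverse complement, each read along the gene's own strand:
IFIT1 (chr10:89392373-89392622, plus strand): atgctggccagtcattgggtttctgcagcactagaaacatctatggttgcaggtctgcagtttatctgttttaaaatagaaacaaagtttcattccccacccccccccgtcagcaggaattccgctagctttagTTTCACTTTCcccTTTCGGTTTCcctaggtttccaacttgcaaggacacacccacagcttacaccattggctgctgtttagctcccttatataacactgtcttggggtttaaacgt
OAS3 (chr12:112938224-112938473, plus strand): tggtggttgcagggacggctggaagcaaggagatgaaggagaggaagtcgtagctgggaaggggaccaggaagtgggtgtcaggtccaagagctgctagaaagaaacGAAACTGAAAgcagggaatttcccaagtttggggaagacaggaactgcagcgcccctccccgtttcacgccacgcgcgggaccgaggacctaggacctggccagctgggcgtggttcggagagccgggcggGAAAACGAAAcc
STAT2 (chr12:56360108-56360357, minus strand): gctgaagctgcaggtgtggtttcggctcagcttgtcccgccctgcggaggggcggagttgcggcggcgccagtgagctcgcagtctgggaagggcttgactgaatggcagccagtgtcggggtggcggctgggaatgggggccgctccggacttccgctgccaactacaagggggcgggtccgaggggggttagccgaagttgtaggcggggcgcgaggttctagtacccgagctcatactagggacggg
The IFIT1 and OAS3 stretches hold 2 cores each and the STAT2 stretch holds 0. A match is a description of these letters, and its absence says only that they are not in this window.

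Levels are given as CPM, that is, counts scaled to the library's total and its TMM factor, and changes as log2 differences with their SE from edgeR's quasi-likelihood test. A change was called at a Benjamini-Hochberg adjusted p under 0.05 over all tested genes. Library totals were 9142433 to 11470973 counts in BXPC3 and 8873041 to 11822495 in PANC1. After a filter on low counts, 45 of the 46 members were tested in BXPC3 and 33 in PANC1, of 12920 and 12514 genes. The untested member in BXPC3 was IRF7, with 0 counts in all 12 libraries. The 13 untested members in PANC1 had at most 67 counts over 12 libraries, and IFI44L, CXCL10 and CXCL11 had 0. A member in the tested set had to be expressed in some group, so the counts below describe those that passed and not the whole list. The lines matched their label on the 5 epithelial markers, each above 1 CPM in every group. Their summed level nevertheless moved with treatment, from 5479 to 5975 CPM in BXPC3 vehicle to 3068 to 3106 CPM with both compounds, and from 3625 to 3795 to 839 to 882 CPM in PANC1.

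Markers of other cells were read in the same libraries. The 10 immune markers summed to at most 6.62 CPM in any library, with TYROBP and NKG7 at 0 in BXPC3 and CD3E and NKG7 at 0 in PANC1. The 4 markers of plasmacytoid dendritic cells, a main source of interferon in blood, summed to at most 3.08 CPM, all of it TCF4. The 5 fibroblast markers, of which COL1A1 made up nearly all, summed to 81.6 to 86.4 CPM in PANC1 vehicle, 11.8 to 13.6 with SR4, 30.3 to 34.0 with lonidamine and 15.9 to 17.2 with both, with COL1A2 and DCN at 0 in that line. In BXPC3 their sum was 11.7 to 13.2 CPM with vehicle and 18.1 to 25.4 with both. In BXPC3 the 4 endothelial markers summed to 9.13 to 10.8 CPM with vehicle and 0 to 0.891 CPM with both compounds, 7.87 CPM of the vehicle level being CDH5. The immune list moved the same way in BXPC3, from 4.78 to 6.62 CPM with vehicle to 1.32 to 1.89 CPM with both, and in PANC1, from 2.91 to 3.44 to 0.841 to 1.31 CPM. The dendritic list in PANC1 went from 2.33 to 3.08 to 0 to 0.187 CPM. The part of these markers in the results was not tested.

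The untreated lines differed first. In vehicle libraries the 46 genes together took 5728, 5143 and 4936 CPM in BXPC3 and 1095, 1074 and 1086 CPM in PANC1. The members' median level was 92.1 CPM in BXPC3 and 6.20 CPM in PANC1. In the model of all 24 libraries, 44 members were lower in PANC1, where 43.0% of all genes were, and 2 were higher, where 41.3% were. Over the 46 the median difference was -3.27 on the log2 scale, against -0.01 over all 13930 genes. Members at 0 lie at the ends of the order, so setting them to their bound could not move this median. Of the 46, 14 passed the filter of this model only through the line where they were high. Among the 32 members tested within both lines, 31 were lower in PANC1 and 1 was higher, with a median of -2.57. The exceptions were IRF7 and IFI35.

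Per kilobase of transcript, the most abundant member was IFITM3, a membrane protein that blocks virus entry, in both lines. Its vehicle level per kilobase was 319 ± 27.5 CPM (SD, n = 3) in BXPC3 and 166 ± 2.03 in PANC1. Next per kilobase came IFI6 at 184 ± 31.3, IFITM1 at 139 ± 15.4 and LGALS3BP at 122 ± 6.92 in BXPC3. The libraries of IFI6 and IFITM1 overlapped there, as did those of IFITM1 and LGALS3BP, so these neighbours are not separated by their spread. In PANC1 LGALS3BP, a secreted galectin-3-binding glycoprotein, followed at 41.0 ± 0.635 CPM per kilobase, and the libraries of IFITM1 at 16.4 ± 1.48 and IFITM2 at 14.5 ± 2.32 overlapped. BST2, IFI27 and CXCL10 stood at 93.8, 88.7 and 66.6 CPM per kilobase in BXPC3. In PANC1 BST2 was at 0.520 and IFI27 at 0.0180 CPM per kilobase, and CXCL10 was at 0.

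**Figure D1:**
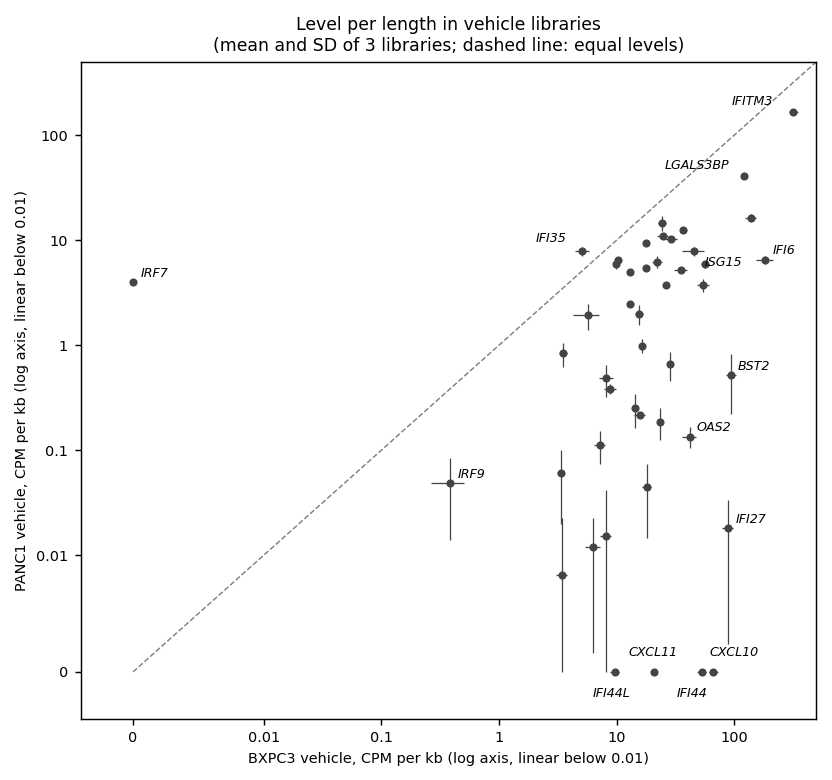
Level of each of the 46 genes per kilobase of transcript in the vehicle libraries, BXPC3 on the x axis and PANC1 on the y axis, both in CPM per kilobase on log axes that are linear below 0.01. Points are means of 3 libraries, bars their SD, and the dashed line marks equal levels. All members but IRF7 and IFI35 lie below the line, and IFI44, IFI44L, CXCL10 and CXCL11 lie on the floor of PANC1.

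Several members were present in BXPC3 and nearly absent in PANC1. IFI27, a small mitochondrial and nuclear-membrane protein, had 12305 counts in the 3 BXPC3 vehicle libraries and 2 in the PANC1 ones, a ratio of 1.85e-04 with a 95% counting interval of 2.24e-05 to 6.70e-04. Such intervals and floors cover counting error alone. TRIM22, an antiviral ubiquitin ligase, had 1277 against 2 counts, and EPSTI1 had 1337 against 2. RSAD2, or viperin, which makes a chain-terminating nucleotide, had 491 against 1. For members with 0 counts in PANC1 vehicle, a floor of 3 counts over the 3 libraries gave a bound. By that bound IFI44L was at least 969-fold lower, IFI44 at least 911-fold, CXCL10 at least 764-fold and CXCL11 at least 386-fold. IRF7, the factor that drives transcription of the interferon alpha genes, went the other way, with 287 counts in PANC1 vehicle and 0 in BXPC3, at least 109-fold higher. IFI35 was higher in PANC1 by 0.51 ± 0.14 (adjusted p = 9.56e-04). STAT2 was lower in PANC1 by a log2 difference of -1.81 ± 0.066, DDX58 by -1.01 ± 0.068 and IFITM3 by -1.05 ± 0.053.

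Under treatment, most of the members fell in BXPC3, with SR4 the least and with both compounds the most. The summed level was 3749, 3440.04 and 3984 CPM in the SR4 libraries, 2072, 2079 and 2035 CPM with lonidamine and 1728, 1769.9 and 1644 CPM with both. No group overlapped another. With SR4, 37 of 45 members were called lower and 2 higher, where 33.9% and 33.4% of all genes were. With lonidamine, 42 were lower and 1 higher, where 32.7% and 34.8% were. With both, 42 were lower and 1 higher, where 39.5% and 39.7% were. The median member change was -0.60, -1.89 and -2.39 on the log2 scale, and the median over all genes 0.01, 0.03 and -0.00. With SR4, 9 members were lower by at least 2-fold, as 7.10% of all genes were. With lonidamine 37 were, against 9.71%, and with both 39 were, against 15.1%.

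PANC1 moved less evenly. The summed level was 909, 947 and 915 CPM with SR4, 1042, 964 and 992 CPM with lonidamine and 750.4, 761 and 727 CPM with both. All treated libraries lay below the vehicle libraries, and no group overlapped another. With SR4, 17 of 33 members were lower and 7 higher, where 36.7% and 35.0% of all genes were. With lonidamine, 14 were lower and 6 higher, where 34.2% and 35.0% were. With both, 22 were lower and 4 higher, where 40.9% and 40.1% were. The medians were -0.29, -0.28 and -0.95. With lonidamine in PANC1, 42.4% of the tested members were thus lower. Lower by at least 2-fold were 7 members with SR4, 3 with lonidamine and 15 with both, against 8.45%, 8.13% and 16.5% of all genes. Without the filter on low counts, 7 members in place of 4 were called higher with both.

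**Figure D2:**
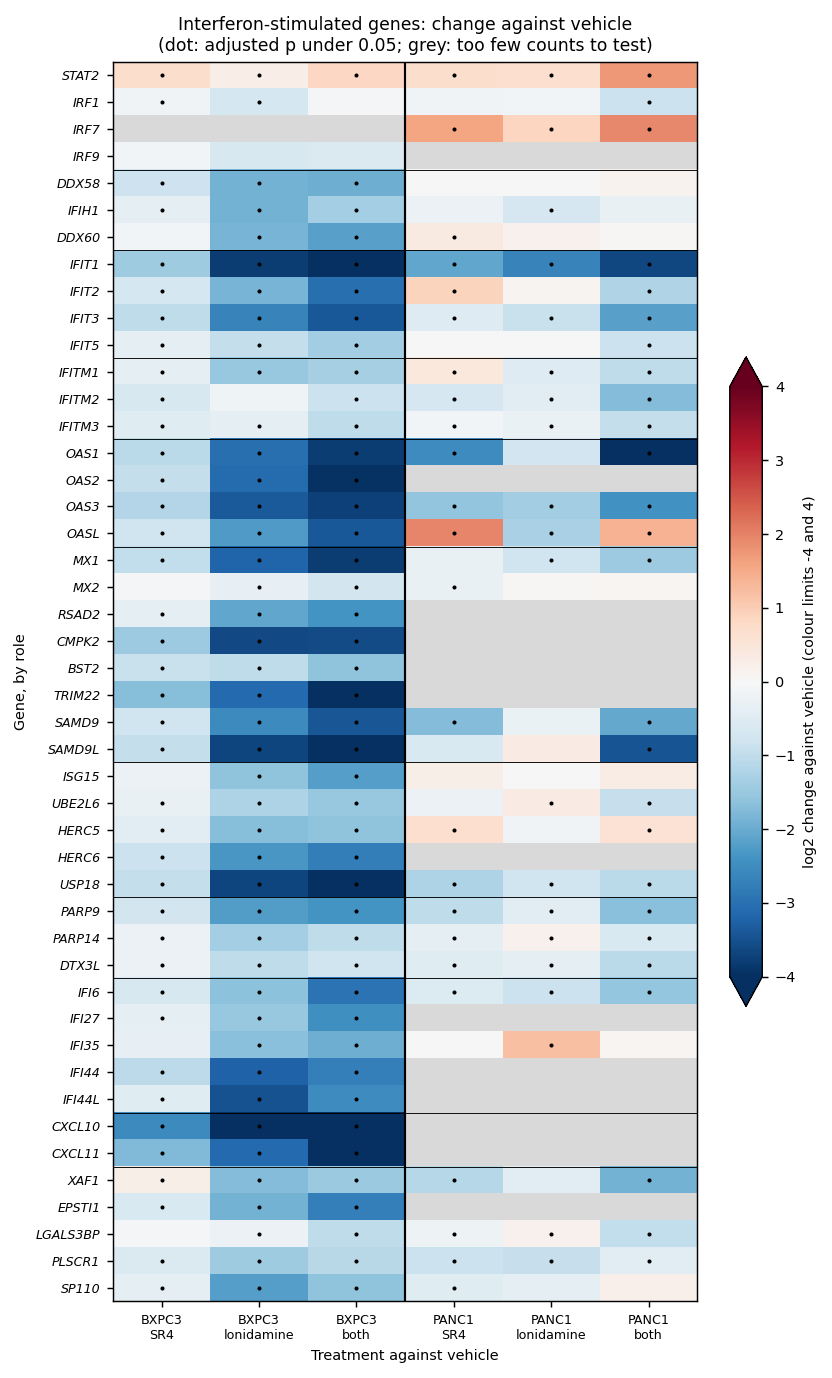
Log2 change of each of the 46 genes against vehicle, for SR4, lonidamine and both compounds in BXPC3 (left) and PANC1 (right), with genes grouped by role. Blue is lower, red is higher, dots mark an adjusted p under 0.05, and grey marks genes with too few counts to test. The BXPC3 columns are blue for all but a few genes, with a median of -2.39 for both compounds, and the PANC1 columns mix both colours.

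Among the transcription factors of the pathway, STAT2, a part of ISGF3, rose. STAT2 was at 111, 110.1 and 105 CPM in BXPC3 vehicle, 176, 170.4 and 181 with SR4, 125, 129.8 and 137 with lonidamine and 188, 196 and 196 with both. No treated library was as low as any vehicle library. In PANC1 it was at 33.1, 32.2 and 34.2 CPM with vehicle, 53.3, 47.6 and 59.7 with SR4, 60.3, 49.4 and 50 with lonidamine and 106, 112 and 109 with both. STAT2 rose by 0.70 ± 0.044, 0.27 ± 0.045 and 0.83 ± 0.044 in BXPC3 and by 0.69 ± 0.082, 0.68 ± 0.080 and 1.72 ± 0.074 in PANC1, with adjusted p-values between 9.82e-06 and 3.26e-18. It was the 1 gene called higher in both lines under all 3 treatments among the 32 tested in both. The rise with both compounds was larger in PANC1 by 0.85 ± 0.085 (adjusted p = 3.71e-11).

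IRF7 in PANC1 was at 10.3, 10.8 and 10.4 CPM with vehicle, 32.5, 32.3 and 29.6 with SR4, 20.7, 20.4 and 16.8 with lonidamine and 38.2, 41.1 and 39.5 with both. It rose by 1.58 ± 0.098, 0.87 ± 0.10 and 1.91 ± 0.094, and the groups did not overlap. IRF1, the factor that carries much of the interferon gamma response, was at 100.2, 106 and 96.6 CPM in BXPC3 vehicle, 66.9, 56.3 and 62.0 with lonidamine and 96.5, 92.1 and 95.4 with both. It fell by 0.71 with lonidamine (SE 0.056, adjusted p = 1.37e-11), while its change with both was -0.09 ± 0.054 (adjusted p = 0.123). In PANC1 the order differed: 39.1, 40.1 and 38.5 CPM with vehicle, 39.9, 35.3 and 34.1 with lonidamine and 21.1, 22.7 and 21.3 with both, a fall of -0.86 ± 0.077. IRF9, the DNA-binding part of ISGF3, was listed at 1.45 ± 0.455 CPM in BXPC3 vehicle and 0.184 ± 0.131 in PANC1. Its interval overlaps RNF31 on the same strand, and how shared reads were counted is not stated.

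The 3 RNA sensors all fell in BXPC3 with lonidamine and with both. DDX58, which encodes RIG-I, the sensor of RNA with a triphosphate end, was at 80.6, 77.6 and 71.6 CPM in BXPC3 vehicle, 43.6, 40.1 and 46.7 with SR4, 23.0, 20.9 and 18 with lonidamine and 19.8, 19.9 and 19.4 with both. In PANC1 it was at 42.6, 38.7 and 41.1 CPM with vehicle and 45.9, 43.5 and 46.0 with both. With both compounds the change was -1.96 ± 0.079 in BXPC3 and 0.15 ± 0.070 in PANC1 (adjusted p = 0.0550), and the lines differed by 2.06 ± 0.11 (adjusted p = 2.65e-19). IFIH1, or MDA5, a sensor of long double-stranded RNA, was at 76.0, 66.4 and 67.1 CPM with vehicle in BXPC3, 17.3, 19.4 and 19.5 with lonidamine and 26.6, 29.5 and 25.5 with both. Its level with both compounds thus lay above every library with lonidamine alone. DDX60, a related helicase, fell by 1.86 with lonidamine and by 2.16 with both in BXPC3 (SE 0.070 and 0.074). In PANC1 DDX60 changed by 0.16 ± 0.16 and 0.05 ± 0.17, neither past the test, and it was called higher with SR4, by 0.37 ± 0.16 (adjusted p = 0.0452). That call was lost without vehicle replicate 1 or 2 or SR4 replicate 1 or 3. It was also lost with DESeq2 or with total counts in place of TMM (adjusted p up to 0.180). IFIH1 in PANC1 fell with lonidamine, by 0.68 ± 0.17 (adjusted p = 0.00107).

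The IFIT proteins bind viral RNA by its end or cap. In BXPC3 all 4 were called lower under every treatment. IFIT1 was at 109, 108 and 90.4 CPM with vehicle, 38.8, 30.2 and 44.2 with SR4, 6.59, 7.09 and 8.44 with lonidamine and 3.19, 5.01 and 2.58 with both. In PANC1 it was at 31.9, 29.3 and 24.5 CPM with vehicle, 6.81, 6.92 and 6.72 with SR4, 5.91, 2.97 and 4.69 with lonidamine and 1.75, 2.84 and 2.34 with both. IFIT1 fell by 4.83 ± 0.15 in BXPC3 and by 3.64 ± 0.18 in PANC1 with both compounds on the log2 scale. Its fall with SR4 was larger in PANC1, by a log2 difference of -0.64 ± 0.20 (adjusted p = 0.00684), which was -0.43 with the replicate number as a block (adjusted p = 0.0604). That block in effect also left out 1 BXPC3 SR4 library, whose number matches no title.

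IFIT2, its neighbour on chromosome 10, moved in both directions in PANC1. It was at 12.8, 13.3 and 13 CPM with vehicle, 25.0, 21.9 and 25.2 with SR4, 14.0, 14.0 and 14.0 with lonidamine and 6.14, 5.28 and 5.61 with both. So it rose with SR4 by 0.88 ± 0.097 (adjusted p = 5.37e-09) and fell with both by 1.2 ± 0.12 (adjusted p = 8.33e-10), while its change with lonidamine was 0.10 ± 0.10 (adjusted p = 0.409). In BXPC3 IFIT2 fell stepwise, with 91.3 ± 1.46 CPM with vehicle, 55.8 ± 6.86 with SR4, 25.1 ± 0.851 with lonidamine and 11.3 ± 1.05 with both (SD, n = 3). IFIT5 was at 24.0 ± 2.5 CPM in PANC1 vehicle, 24.0 ± 1.28 with SR4 and 23.5 ± 0.547 with lonidamine, but 13.2 ± 1.98 with both. IFIT1 (chr10:89392546-89406486), IFIT2 (chr10:89301955-89309276) and IFIT3 (chr10:89327894-89340971) lie within the span of LIPA, which is read from the other strand, and the strand setting of the counts is not stated.

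**Figure D3:**
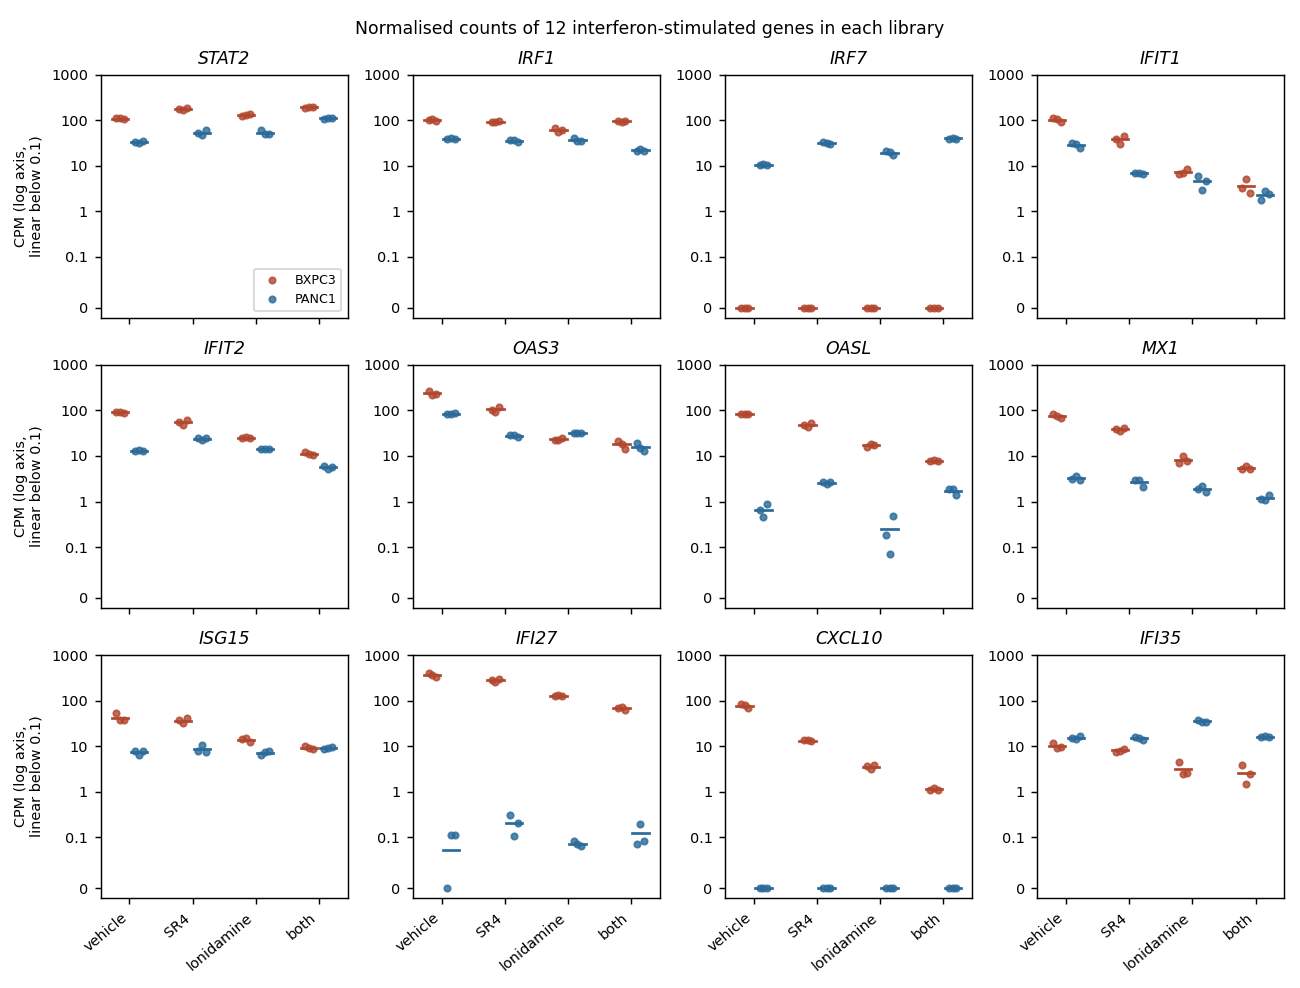
CPM of 12 of the 46 genes in every library, BXPC3 in red and PANC1 in blue, for vehicle, SR4, lonidamine and both compounds. Dots are libraries, short lines group means, and the y axis is logarithmic and linear below 0.1. STAT2 goes up under every treatment, IFIT1 and OAS3 go down in both lines, IRF7 stays at 0 in BXPC3, and CXCL10 stays at 0 in PANC1.

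The IFITM proteins sit in membranes and hinder virus entry. IFITM3 was at 466, 428 and 392 CPM in BXPC3 vehicle, 317, 288 and 314 with SR4, 345, 333 and 329 with lonidamine and 218, 217 and 198 with both. In PANC1 IFITM3 was at 222, 220.1 and 225 CPM with vehicle and 111, 124 and 112 with both. The change with both was -1.02 ± 0.051 in BXPC3 and -0.95 ± 0.049 in PANC1, and the difference between the lines was 0.04 ± 0.078 (adjusted p = 0.693). IFITM1 moved in opposite directions with SR4, from 153 ± 17.0 to 116 ± 8.82 CPM in BXPC3 and from 18.2 ± 1.64 to 24.6 ± 1.59 CPM in PANC1. IFITM1 and IFITM2 overlap in the authors' coordinates (chr11:308408-315272 and chr11:307631-309395), and the family's coding sequences are close copies, so the split of reads among them is uncertain.

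The OAS enzymes make the short 2'-5' linked adenylates that activate RNase L. In BXPC3 all 4 genes fell with each treatment. OAS3 (chr12:112938352-112973249) was at 271, 215 and 229 CPM in BXPC3 vehicle, 103, 90.4 and 121 with SR4, 22.1, 22.7 and 24.2 with lonidamine and 21.2, 18.4 and 14.4 with both. In PANC1 it was at 81.4, 84.0 and 85.6 CPM with vehicle, 28.3, 29.1 and 26.1 with SR4, 32.4, 31.8 and 31.7 with lonidamine and 18.8, 14.9 and 12.6 with both. The fall with both was -3.73 ± 0.11 in BXPC3 and -2.43 ± 0.083 in PANC1. OAS1 in PANC1 had 29 counts with vehicle and 1 with both, a ratio of 0.0292 with a counting interval of 7.14e-04 to 0.176. It passed the filter on low counts in PANC1 through its vehicle libraries, where it was highest. OAS2 in PANC1 had too few counts to test.

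OASL, which lacks the enzyme's activity and instead aids RIG-I, showed the largest difference between the lines with SR4 and with both, among the 32 members tested in each. In BXPC3 it was at 82.7, 84.6 and 81.4 CPM with vehicle, 47.0, 43.9 and 52.9 with SR4, 15.7, 18.1 and 17.7 with lonidamine and 7.69, 8.24 and 7.75 with both. In PANC1 OASL was low, at 0.637, 0.448 and 0.889 CPM with vehicle, 2.62, 2.45 and 2.69 with SR4, 0.185, 0.0874 and 0.493 with lonidamine and 1.93, 1.86 and 1.40 with both. Every SR4 and combination library of PANC1 was above every vehicle library, all at 74 counts or fewer per group. OASL passed the filter on low counts in PANC1 through these SR4 and combination libraries, where it was high. Its tests in PANC1 and its rank among the 32 thus describe a member kept for those levels. The change in PANC1 was 1.95 ± 0.36 with SR4 (adjusted p = 2.09e-05) and 1.38 ± 0.38 with both (adjusted p = 0.00169). With lonidamine the change of OASL in PANC1 was -1.29 (adjusted p = 0.0422). That call was lost without vehicle replicate 1 or 3, SR4 replicate 1 or lonidamine replicate 1 or 2. It was also lost with DESeq2, total counts in place of TMM, no low-count filter or a replicate block (adjusted p up to 0.176). The difference from BXPC3 was 2.74 ± 0.32 with SR4 and 4.73 ± 0.35 with both.

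Among MX1 and the other effectors, MX1, a GTPase that traps viral nucleocapsids, was at 84.7, 75.1 and 67.2 CPM in BXPC3 vehicle, 39.0, 34.6 and 41.5 with SR4, 6.99, 9.81 and 7.93 with lonidamine and 5.16, 5.91 and 5.16 with both. In PANC1 it was at 3.29 ± 0.363 CPM with vehicle, 2.7 ± 0.545 with SR4, 1.89 ± 0.272 with lonidamine and 1.21 ± 0.173 with both. Its neighbour MX2, which restricts retroviruses at the nuclear pore, was at 134 ± 1.76 CPM in BXPC3 vehicle against 106 ± 5.68 with lonidamine, and 84.2 ± 1.05 CPM in PANC1 vehicle against 89.6 ± 8.02 with both. It fell in BXPC3 by 0.34 ± 0.049 with lonidamine, and its change of 0.09 ± 0.056 in PANC1 did not pass the test (adjusted p = 0.139). TRIM22 in BXPC3 was at 43.7, 37.6 and 32.9 CPM with vehicle and 2.09, 2.79 and 1.35 with both, a change of -4.19 ± 0.18. SAMD9L, a brake on growth and poxvirus replication, was at 51.2 ± 5.29 CPM in BXPC3 vehicle and 2.63 ± 0.751 with both. In PANC1 SAMD9L had 22 counts with vehicle and 2 with both, a ratio of 0.0769 with a counting interval of 0.00876 to 0.313. BST2, or tetherin, which holds budding virus at the cell surface, fell by 0.89, 1.02 and 1.60 in BXPC3, so that SR4 and lonidamine did not differ past the test (-0.13 ± 0.086, adjusted p = 0.225).

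ISG15 is a ubiquitin-like tag, attached by the conjugating enzyme UBE2L6 and the ligase HERC5 and removed by USP18, which also blocks the type I receptor. ISG15 was at 52.8, 36.8 and 38.0 CPM in BXPC3 vehicle, 36.7, 32.1 and 40.7 with SR4, 14.3, 15.3 and 12.1 with lonidamine and 9.89, 9.14 and 8.53 with both. The SR4 libraries overlapped vehicle, and those with lonidamine or both did not. In PANC1 ISG15 was at 7.38 ± 0.771 CPM with vehicle and 8.68 ± 1.72, 7.20 ± 0.769 and 9.16 ± 0.342 with SR4, lonidamine and both, and none of the 3 changes passed the test. USP18 fell in both lines under all treatments, from 12 ± 3.08 to 0.630 ± 0.0594 CPM with both in BXPC3 and from 4.10 ± 1.14 to 1.91 ± 0.299 CPM in PANC1. Without vehicle replicate 2 the PANC1 fall with lonidamine missed the threshold (-0.58, adjusted p = 0.0533). UBE2L6 split the lines under lonidamine: 88.6, 72.9 and 71.2 CPM against 30.7, 35.1 and 32.3 in BXPC3, and 11, 11.8 and 11.2 CPM against 15.6, 13.9 and 13 in PANC1. The PANC1 rise of UBE2L6, 0.32 ± 0.13 (adjusted p = 0.0275), was lost without vehicle replicate 1 or 3 or lonidamine replicate 1, and with DESeq2 (adjusted p up to 0.112). HERC5 in PANC1 was at 2.29 ± 0.778 CPM with vehicle, 3.63 ± 0.625 under SR4 and 3.45 ± 0.379 under both, called higher in each. Without vehicle replicate 3 the changes were 0.41 (adjusted p = 0.166) and 0.34 (adjusted p = 0.229), and leaving out SR4 replicate 2 or 3, vehicle replicate 2, or combination replicate 1 or 3 also ended a call of HERC5. With DESeq2 neither of these HERC5 calls held. In BXPC3 HERC5 fell from 38.7 ± 5.12 to 28.8 ± 1.92 CPM under SR4 and 12.6 ± 2.08 CPM under both.

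PARP9 and DTX3L form a complex that modifies histones and ubiquitin, and PARP14 is a neighbouring mono-ADP-ribosyltransferase. PARP9 was at 125, 115 and 110.2 CPM in BXPC3 vehicle, 24.9, 27.1 and 23.2 with lonidamine and 23.8, 24.6 and 18.5 with both, and in PANC1 at 22.7, 21.9 and 21.2 CPM with vehicle and 7.80, 7.53 and 5.42 with both. DTX3L, whose promoter it shares, fell less: -1.02 ± 0.055 with lonidamine in BXPC3 against -2.22 ± 0.087 for PARP9. Their annotated intervals overlap at the shared end. PARP14 was at 285, 233 and 256 CPM in BXPC3 vehicle, 104, 103 and 98.3 with lonidamine and 129, 129 and 125 with both. In PANC1 PARP14 was at 109.7, 122 and 111 CPM with vehicle and 137, 119.96 and 133 with lonidamine, a rise of 0.18 ± 0.056 (adjusted p = 0.00568) although 1 library overlapped vehicle.

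Among the IFI genes, IFI27 was at 407, 369 and 325 CPM in BXPC3 vehicle, 280.2, 251 and 303 with SR4, 127, 131 and 129 with lonidamine and 67.7, 72.2 and 62.6 with both. IFI6, a protein of the endoplasmic reticulum, was at 158 ± 26.9 CPM with vehicle, 101 ± 10.9, 50.9 ± 1.94 and 20.5 ± 3.48, and both genes stepped down from each treatment to the next. IFI44 and IFI44L, neighbours on chromosome 1, had their lowest level with lonidamine alone. IFI44L was at 109, 91.5 and 96.2 CPM with vehicle, 72.1, 61.0 and 77.9 with SR4, 8.49, 9.13 and 9.16 with lonidamine and 16.8, 20.5 and 14.6 with both. Every combination library of IFI44L lay above every lonidamine library, by 0.95 ± 0.15 (adjusted p = 3.18e-06). IFI35, a partner of NMI, was at 15.1, 14.1 and 17.1 CPM in PANC1 vehicle, 37.1, 34.1 and 34.5 with lonidamine and 16.0, 16.5 and 16.2 with both. It rose with lonidamine by 1.19 ± 0.087 (adjusted p = 1.39e-12), and its change with both was 0.07 ± 0.099 (adjusted p = 0.515). In BXPC3 IFI35 fell with lonidamine by 1.67 ± 0.21 (adjusted p = 1.38e-07).

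CXCL10 and CXCL11 encode chemokines that draw T cells through the receptor CXCR3. In BXPC3 they were the members with the deepest falls under both compounds. CXCL10 (chr4:76021117-76023497) was at 84.1, 79.6 and 70.3 CPM with vehicle, 3.59, 3.11 and 3.81 with lonidamine and 1.10, 1.23 and 1.12 with both, a change of -4.47 ± 0.11 and -6.07 ± 0.13. CXCL11 was at 39.8, 38.4 and 39.9 CPM with vehicle, 10.5, 12.2 and 11.9 with SR4, 5.29, 5.05 and 3.29 with lonidamine and 0.659, 0.780 and 1.23 with both. The last change of CXCL11 was -5.45 ± 0.17 (adjusted p = 1.62e-20). Both chemokine genes lie within the annotated span of ART3.

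The remaining members held further exceptions. XAF1, a pro-apoptotic antagonist of XIAP, was at 101, 90.2 and 92.2 CPM in BXPC3 vehicle, 111, 105 and 119 with SR4, 28.2, 27.9 and 29.3 with lonidamine and 30.7, 38.8 and 32.3 with both. It was, with STAT2, 1 of the 2 members called higher with SR4 in BXPC3, by 0.24 ± 0.059 (adjusted p = 7.47e-04). LGALS3BP in PANC1 was at 149, 145 and 146 CPM with vehicle, 121, 133 and 126 with SR4, 171, 165 and 164 with lonidamine and 75.7, 74.1 and 72.3 with both, so lonidamine alone lay above vehicle and the treatments with SR4 below it. PLSCR1, a phospholipid scramblase, was at 24.4, 21.9 and 21.4 CPM in PANC1 vehicle, 11.5, 13.9 and 12 with SR4, 12.5, 10.7 and 12.3 with lonidamine and 17.4, 17.4 and 15.6 with both. Its level with both compounds was above every library of either compound alone. SP110, a nuclear-body protein, was at 25.7, 24.3 and 22.2 CPM in BXPC3 vehicle, 5.59, 5.34 and 4.63 with lonidamine and 7.80, 7.46 and 8.2 with both. With SR4 it was at 18.2, 16.5 and 20.4 CPM, so its level with both lay above lonidamine and below SR4.

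The lines were compared response by response in the model of all libraries, using the 32 members tested within both. With SR4, the response differed in 16 of these, and the members' median change was -0.45 in BXPC3 and -0.29 in PANC1. Of the differences, 10 were called positive, where 26.2% of genes were, and 6 negative, where 24.9% were. Both counts lie near the share over all genes. The negative count over all 46 members was also 6, and was 10 without BXPC3 SR4 replicate 2 and 2 with the replicate number as a block. In that block 1 BXPC3 SR4 library without a matching number stood alone, which in effect left it out. A positive difference here means a smaller fall or a larger rise in PANC1. With lonidamine, the response differed in 29 of the 32, and the median was -1.71 in BXPC3 and -0.32 in PANC1. These 29 were positive, where 23.5% of genes were, and 0 were negative, where 18.2% were. OAS2 and TRIM22 were called positive too, but had too few counts to test within PANC1, and TRIM22 lost its call without PANC1 lonidamine replicate 3. At an unadjusted p under 0.05 the negative count was also 0, and DESeq2 gave 0. Over all 46 members that count was 1 without PANC1 vehicle replicate 2. With both compounds the response differed in 26 of the 32, and the medians were -1.78 and -0.97. Of the 26, 23 were positive, where 31.7% of genes were, and 3 negative, where 30.2% were. OAS2, RSAD2, CMPK2, IFI44 and EPSTI1 were called positive too, but had too few counts to test within PANC1, and each lost its call when 1 PANC1 library was left out. The 3 negative differences were IRF1 at -0.80 ± 0.093, IFITM2 at -0.90 ± 0.17 and DTX3L at -0.33 ± 0.084. Without PANC1 combination replicate 1, DTX3L was at -0.20 (adjusted p = 0.0549).

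**Figure D4:**
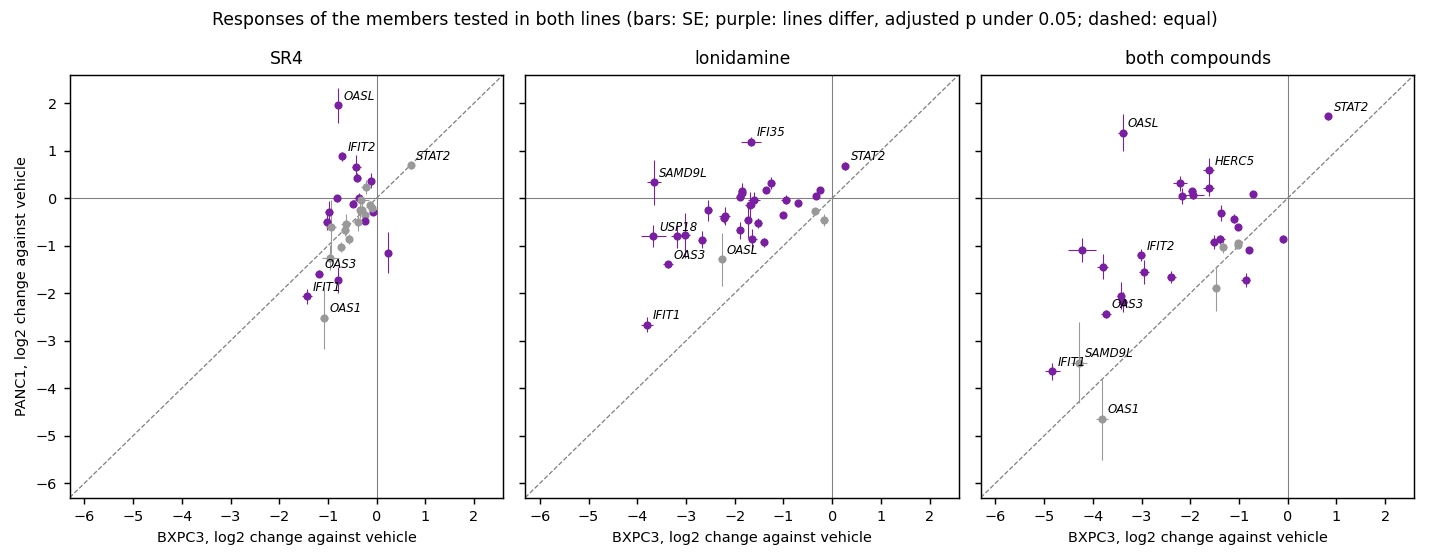
Log2 change against vehicle in BXPC3 (x axis) and PANC1 (y axis) of the 32 members tested in both lines, for SR4, lonidamine and both compounds. Bars are SE, purple points differ between the lines at an adjusted p under 0.05, and the dashed line marks equal changes. With lonidamine 29 of the 32 points are purple and lie above the line, and OASL stands apart at top left with SR4 and with both.

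The combination was then set against each compound. These contrasts share their combination libraries with each other and their vehicle libraries with the ones above, so the values stand side by side as descriptions of the same groups. In BXPC3 the combination was lower than SR4 in 41 of 45 members and higher in 1, STAT2, where 30.5% and 30.3% of genes were (37.4% and 24.4% with total counts in place of TMM, when STAT2 was not called). STAT2 was not called without SR4 replicate 2 either. Against lonidamine it was lower in 26 and higher in 11, where 30.7% and 30.1% were. The 11 were STAT2, IRF1, IFIH1, IFITM1, PARP14, DTX3L, IFI44, IFI44L, XAF1, PLSCR1 and SP110. In PANC1 the combination was lower than SR4 in 17 of 33 and higher in 5, where 33.4% and 33.2% were. It was lower than lonidamine in 21 and higher in 7, where 37.5% and 37.1% were. Between the single compounds, lonidamine was lower than SR4 in 41 of the BXPC3 members and higher in 2, IFITM2 and IFITM3, where 23.0% and 23.7% were (29.1% and 17.2% with total counts, when 1 member was higher). That count was also 1 without SR4 replicate 2 or without lonidamine replicate 1 or 2. In PANC1 it was lower in 8 and higher in 10, where 33.4% and 32.9% were. The members' median for that contrast was -1.40 in BXPC3 and 0.03 in PANC1.

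Whether the joint change equalled the sum of the single ones on the log2 scale was tested as an interaction. In BXPC3, 17 of 45 members lay above the sum, where 23.7% of genes did, and 7 below, where 25.5% did. The members furthest above were IFI44 at 1.55 ± 0.17, CMPK2 at 1.48 ± 0.46 and IFI44L at 1.44 ± 0.16. CMPK2, a mitochondrial nucleotide kinase, was at 1.17 ± 0.0873 CPM with lonidamine and 1.18 ± 0.851 with both, and without combination replicate 2 its value was 0.76 (adjusted p = 0.259). Furthest below were LGALS3BP at -0.68 ± 0.063 and IFI6 at -0.67 ± 0.16. In PANC1, 8 of 33 lay above, where 30.8% of genes did, and 14 below, where 30.0% did. PLSCR1 was furthest above at 1.36 ± 0.15, with SP110 at 1.09 ± 0.26 and IFIT1 at 1.09 ± 0.30. Below lay IFIT2 at -2.18 ± 0.15, IFI35 at -1.09 ± 0.13, UBE2L6 at -1.0 ± 0.20 and LGALS3BP at -0.96 ± 0.062. SAMD9L at -3.19 ± 1.06 rests on 2 counts in the combination libraries, and was -2.22 without SR4 replicate 1 (adjusted p = 0.123). PLSCR1, SP110, IFIH1 and OAS3 lay above the sum in both lines, and LGALS3BP, IFIT2 and IFITM3 below it in both. The calls of IFIH1 in PANC1 and IFITM3 in BXPC3 were lost when any of 6 and 5 single libraries was left out (adjusted p up to 0.0965 and 0.127). Both were also lost with DESeq2, and that of IFITM3 with DESeq2 size factors or a replicate block. IRF1, IFITM1, PARP14 and DTX3L lay above the sum in BXPC3 and below it in PANC1, and MX2 the reverse.

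**Figure D5:**
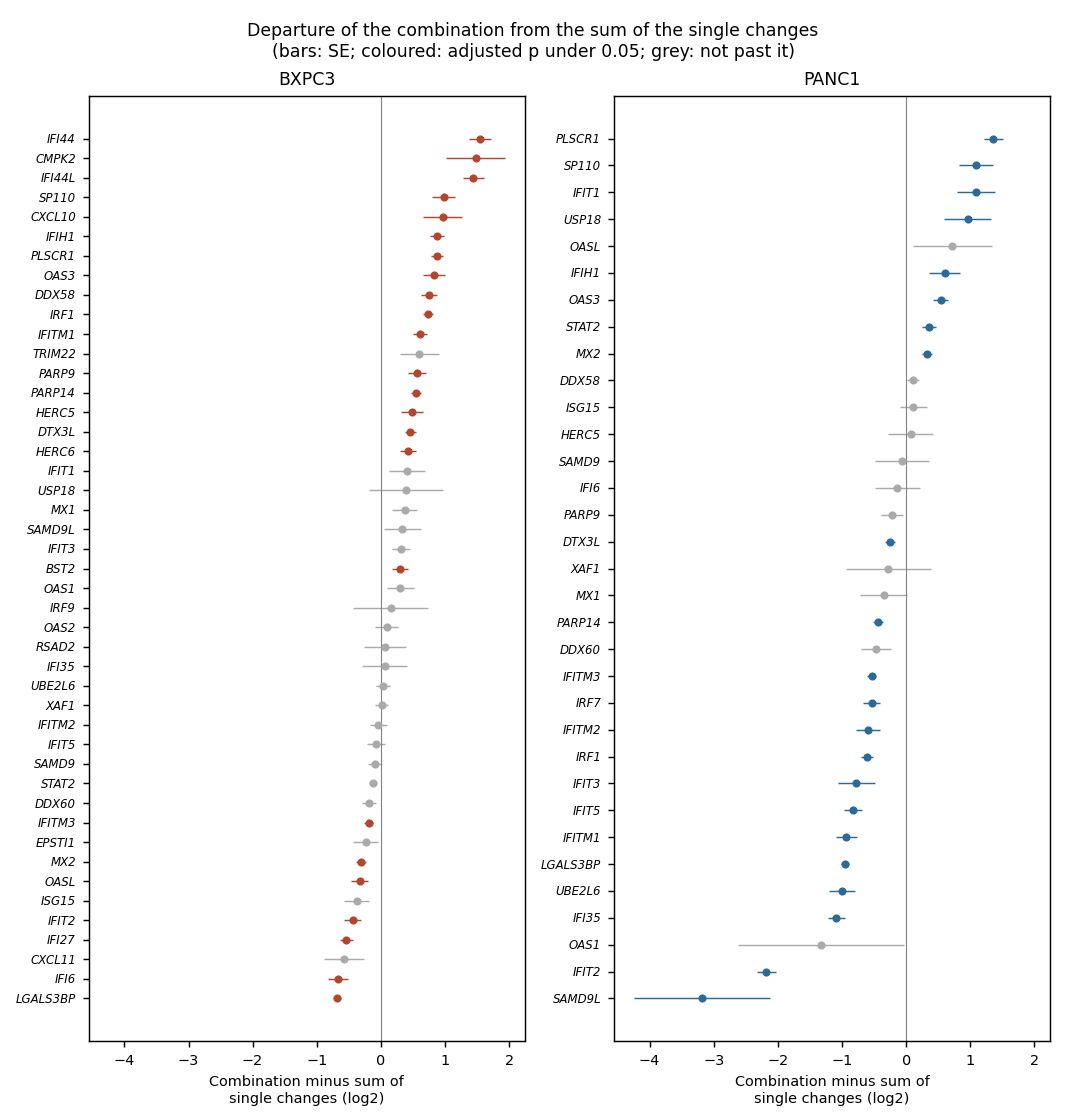
Joint change minus the sum of the single changes, on the log2 scale, for each tested member in BXPC3 (left, 45 genes) and PANC1 (right, 33 genes), ordered by value. Bars are SE, and coloured points passed an adjusted p of 0.05. In BXPC3 17 points are called above 0 and 7 below, and in PANC1 8 above and 14 below, with IFIT2 at -2.18.

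The members were also split by the core, GAAA, any 2 bases and GAAA again, in their promoter. Pairs of GAAA held 1 base apart were not counted. Windows without the core can hold such a pair, as that of OAS1 does, so they need not lack a response element. With lonidamine in BXPC3, the 25 members with the core had a median of -1.86, with 25 called lower, and the 13 without it a median of -1.89, with 11 lower and 1, STAT2, higher, where 32.7% of all genes were lower and 34.8% higher. With both compounds the medians were -2.39 and -1.94. In PANC1 with lonidamine, 11 of 18 tested members with the core were lower and 2 higher, and of 9 without it 0 were lower and 3 higher, with medians of -0.39 and 0.03, where 34.2% of all genes were lower and 35.0% higher. With both compounds in PANC1, 14 of 18 with the core were lower and 1 higher, and of 9 without it 5 were lower and 1 higher. The medians were -1.01 and -0.86, where 40.9% of all genes were lower and 40.1% higher. With SR4 there, 11 of 18 were lower and 3 higher, and of 9 without the core 3 were lower and 1 higher. The medians were -0.32 and -0.24, where 36.7% of all genes were lower and 35.0% higher. The difference between these sets was not tested.

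Other genes of the pathway were taken from lists. None of the 9 interferon genes listed had enough counts to test, and none passed a mean of 0.329 CPM, reached by IFNL1 in BXPC3 vehicle with 11 counts. IFNL1 had 2 counts with SR4 and 0 with lonidamine or both in that line. JAK1, the kinase at the type I receptor, rose with both compounds in BXPC3 by 0.71 ± 0.044 and in PANC1 by 0.32 ± 0.039. SOCS3, a feedback inhibitor of the kinases, rose in BXPC3 by 0.89 ± 0.089, and its change in PANC1 was -0.06 ± 0.061 (adjusted p = 0.383). PTPN2, a phosphatase that acts on JAK1, rose in PANC1 by 0.68 ± 0.066 and changed in BXPC3 by 0.05 ± 0.061 (adjusted p = 0.497).

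Among the receptor chains, IFNGR1 and IL10RB moved in opposite directions in the lines, and IFNAR2 and IFNGR2 fell in both. With both compounds IFNAR2 fell by 1.02 ± 0.075 in BXPC3 and by 1.31 ± 0.11 in PANC1. IFNAR1 fell by 0.13 ± 0.050 in BXPC3 (adjusted p = 0.0177), and its change in PANC1 was -0.05 ± 0.072 (adjusted p = 0.553). IFNGR1, the binding chain of the interferon gamma receptor, fell by 0.65 ± 0.042 in BXPC3 and rose by 1.25 ± 0.067 in PANC1. IFNGR2 fell by 0.28 ± 0.049 and by 1.26 ± 0.073. IL10RB, shared with the type III receptor, rose by 0.27 ± 0.10 in BXPC3 and fell by 1.16 ± 0.096 in PANC1. IFNLR1 rose in BXPC3 by 0.77 ± 0.27, and its change in PANC1 was 0.80 ± 0.48 (adjusted p = 0.125). With both compounds, 2 of the 6 receptor genes were higher and 4 lower in BXPC3, and 1 higher and 3 lower in PANC1. Over all genes, 39.7% were higher and 39.5% lower in BXPC3, and 40.1% and 40.9% in PANC1.

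Of 18 listed genes that lead to interferon production, 16 were tested in BXPC3, with 5 higher and 9 lower under lonidamine, and 7 higher and 7 lower under both. Over all BXPC3 genes, 34.8% were higher and 32.7% lower under lonidamine, and 39.7% and 39.5% under both. In PANC1 14 were tested, with 5 higher and 6 lower under lonidamine, and 4 higher and 9 lower under both, against 35.0% and 34.2%, and 40.1% and 40.9%, of all genes. MAVS, the adaptor of RIG-I and MDA5, rose with both compounds in BXPC3 by 0.62 ± 0.035 and fell in PANC1 by 0.67 ± 0.045. TRIM25, a ubiquitin ligase that acts on RIG-I, rose in both lines, by 0.83 ± 0.044 and 0.63 ± 0.045. IKBKE, a kinase of IRF3, fell in both, by 1.25 ± 0.077 and by 2.48 ± 0.29. MYD88, the adaptor of most Toll-like receptors, fell by 0.28 ± 0.056 and by 2.15 ± 0.11.

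A second list of 33 interferon-stimulated genes outside the 46 was counted in the same way. In BXPC3, 20 of the 33 were lower and 5 higher with SR4, 29 lower and 2 higher with lonidamine, and 28 lower and 5 higher with both, with medians of -0.42, -0.88 and -0.86. Of all BXPC3 genes, 33.9%, 32.7% and 39.5% were lower and 33.4%, 34.8% and 39.7% higher. In PANC1, 28 were tested. There 12 were lower and 6 higher with SR4, 8 lower and 12 higher with lonidamine, and 16 lower and 9 higher with both, where 36.7%, 34.2% and 40.9% of all genes were lower and 35.0%, 35.0% and 40.1% higher. TNFSF10, the death ligand TRAIL, was at 72.8, 70.7 and 65.5 CPM in BXPC3 vehicle and 1.21, 3.12 and 2.02 with both, a fall of -5.04 ± 0.14. GBP1, a GTPase that coats intracellular bacteria, was at 54.1, 48.5 and 46.4 CPM and 1.87, 1.56 and 1.46, a fall of -4.92 ± 0.14. TRIM14 fell in both lines, by 2.66 ± 0.068 in BXPC3 and by 1.80 ± 0.13 in PANC1. WARS, a tRNA synthetase, rose under every treatment in both lines, by 1.54 ± 0.032, 0.90 ± 0.032 and 1.18 ± 0.032 in BXPC3 and by 0.48 ± 0.041, 1.28 ± 0.039 and 0.92 ± 0.039 in PANC1.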

How the data were processed

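Gene counts of 24 libraries, 12 per line, were used as the authors deposited them, in 1 count table per line, and every value column was used. The builds GRCh38 and hg38 and the tools DESeq2, Partek and STAR 2.7.8a stand in the submitters' processing notes without their roles. Which program counted, on which annotation and with which strand setting, is not stated there. CPM was computed here, and promoter sequences are from RefSeq on GRCh38.p14. One SR4 column of BXPC3 carries a number unlike its sample title and was kept as an unnumbered replicate. With edgeR 4.0.16 (R 4.3.3), genes were kept by filterByExpr at a minimum count of 10, scaled by TMM and tested by the quasi-likelihood test, in 4 groups per line (8 residual degrees of freedom) and in 8 groups over both lines (16). The SE is the log2 change over the square root of F. Alternatives were other scalings, no filter, DESeq2 1.42.0, only the groups compared, a replicate block and each library left out. In the block the unnumbered SR4 library of BXPC3 stood alone, which in effect left it out. The members and lists were chosen with earlier results of these data known. Members were given library by library where they had the highest level or smallest adjusted p of their role group, went against most members or differed between the lines, and up to 4 genes per pathway list were named by smallest adjusted p, with all receptors. One listed gene is not reported here.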

Additional observations from a re-analysis of the deposited data

Results flagged for a closer look

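Values in 11 cases moved in opposite directions in the lines, with both changes called and the difference itself called in edgeR's model of all 24 libraries (Benjamini-Hochberg adjusted). Differences are PANC1 minus BXPC3 on the log2 scale. With SR4, OASL differed by 2.74 (-0.79 in BXPC3, 1.95 in PANC1), IFIT2 by 1.59 (-0.71 and 0.88), HERC5 by 1.08 (-0.42 and 0.66) and IFITM1 by 0.83 (-0.40 and 0.43). XAF1 went the other way, with a difference of -1.40 (0.24 in BXPC3 and -1.15 in PANC1). Its PANC1 change missed the threshold without vehicle replicate 2 or SR4 replicate 1 or 3. With lonidamine, IFI35 differed by 2.89 (-1.67 and 1.19), UBE2L6 by 1.60 (-1.25 and 0.32), PARP14 by 1.56 (-1.35 and 0.18) and LGALS3BP by 0.47 (-0.25 and 0.18). With both compounds, OASL differed by 4.73 (-3.39 and 1.38) and HERC5 by 2.16 (-1.62 and 0.59). In PANC1, OASL passed the filter on low counts only through the SR4 and combination libraries, where it was high. The PANC1 calls of HERC5 with SR4 and with both, and of UBE2L6 with lonidamine, were also lost under some alternatives, DESeq2 included.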

How the results depend on the processing

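Of 496 values of single members in 12 comparisons, 365 were called. Of these, 323 were called under every alternative run, 42 lost the call under at least 1, and 0 changed sign while called. Counts of called members stayed within 1.5 times their value except as follows. With total counts in place of TMM, 0 members in place of 1 were higher with both compounds than with SR4 in BXPC3 (range 0 to 1 with each library left out), and 1 in place of 2 was higher with lonidamine than with SR4 there (range 1 to 2). With no filter on low counts, 7 in place of 4 were higher with both compounds than with vehicle in PANC1 (range 3 to 6 with each library left out). For the SR4 response, the count of members more negative in PANC1 was 2 in place of 6 when a replicate block was fitted, and 4 to 10 with each library left out. That block in effect also left out the unnumbered SR4 library of BXPC3. For the lonidamine response the count of members more negative in PANC1 was 0 to 1 in place of 0. The cause was not tested. Whether the replicate numbers pair the libraries is not stated in the labels. Deviations of same-numbered libraries correlated from -0.08 to 0.08 over 15 pairs in BXPC3 and from -0.14 to 0.09 over 18 pairs in PANC1. For libraries with different numbers the ranges were -0.08 to 0.10 and -0.09 to 0.11. With 3 libraries per group, these ranges cannot decide whether the libraries were paired. The block moved no other count of called members by over 1.5 times. The share of promoters with the motif was 65.8% for the core, 42.1% for the longer form and 36.8% for the gamma-activated site, the last added after the data were seen. At these depths, members with few counts, such as OAS1 and SAMD9L in PANC1, carry wide intervals.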
